A study of Mus musculus with 24 samples.

Results

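The genes described here encode the protein components of the cytosolic ribosome. They were taken from the deposited count table by symbol: every row named Rpl or Rps with a number and an optional a, x, y or l ending, together with Rpsa, Rplp0, Rplp1, Rplp2 and Fau, and without the S6 kinase genes and rows marked as pseudogenes. This rule found 83 of the 14693 genes in the table, 33 of the small (40S) and 50 of the large (60S) subunit. Of these, 81 passed the filter on low counts and were tested among 12994 genes. The 2 that did not pass were Rpl3l, the striated-muscle paralogue of Rpl3, with 0 to 8 counts per library, and Rps27, with 0 to 11 counts per library.

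The cells were C2C12, an established line of mouse myoblasts that fuse into myotubes when serum is reduced, of genotype WT in every group. They were grown in 10% fetal bovine serum and moved to 2% horse serum to differentiate. During differentiation they received vehicle, 100 µM albumin-bound linoleic acid (LA, 18:2n6, a polyunsaturated fatty acid of the omega-6 class), or 10 ng/mL recombinant mouse ANGPTL4, a secreted inhibitor of lipoprotein lipase, and RNA was collected at day 2 or day 6. The 6 groups had 4 libraries each, numbered as replicates 1 to 4, prepared with a QuantSeq kit that reads the 3′ ends of mRNAs (RNA integrity number above 7). The labels give no composition for the vehicle and do not say whether replicates were separate cultures, so the p-values measure the spread between libraries, which may be technical. The cells are a single line, and the LA and ANGPTL4 groups of a day share their vehicle libraries.

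A ribosome holds 1 copy of nearly every one of these proteins, and cells keep the supply of the proteins and of ribosomal RNA in balance. Most ribosomal protein mRNAs begin with a cytosine and a run of pyrimidines at the 5′ end, the terminal oligopyrimidine (TOP) motif, through which mTOR signalling and the RNA-binding protein LARP1 control their translation. Some members act outside the ribosome: Rpl5 and Rpl11, for example, bind the p53 regulator Mdm2 when ribosome assembly is disturbed. In muscle cells ribosome production belongs to the proliferating and growing states.

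Reference windows give the sequence around the sites where the mRNAs of these genes are annotated to begin. A RefSeq window of 250 bases before to 50 bases after an annotated start (build GRCm38.p6, not the build of the counts) was matched by symbol for 63 of the 83 members. In the following lines, 25 bases on each side of the start are printed 5′ to 3′ on the transcribed strand, so that the last 25 bases lie in the first exon. Capitals mark a run of 8 or more C and T bases that opens with C, or the letters CCGGAAG, the core of an ETS factor site. The genes were chosen to span small and long proteins, the members that changed most and least, and a member with no such run.
Rps28 (chr17:33824538-33824587, minus strand): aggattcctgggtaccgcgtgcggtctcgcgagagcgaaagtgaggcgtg
Rpl39 (chrX:37085198-37085247, minus strand): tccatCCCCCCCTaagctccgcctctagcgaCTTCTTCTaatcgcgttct
Rpl38 (chr11:114668555-114668604, plus strand): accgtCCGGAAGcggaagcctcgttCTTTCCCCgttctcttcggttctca
Rplp2 (chr7:141447626-141447675, plus strand): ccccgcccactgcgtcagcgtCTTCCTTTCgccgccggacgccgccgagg
Rpl22l1 (chr3:28805483-28805532, plus strand): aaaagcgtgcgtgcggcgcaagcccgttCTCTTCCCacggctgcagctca
Fau (chr19:6057922-6057971, plus strand): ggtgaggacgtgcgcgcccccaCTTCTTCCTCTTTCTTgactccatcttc
Rps6 (chr4:86857343-86857392, minus strand): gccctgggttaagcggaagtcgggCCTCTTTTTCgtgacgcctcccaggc
Rpl4 (chr9:64173362-64173411, plus strand): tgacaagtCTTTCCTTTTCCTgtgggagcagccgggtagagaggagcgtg

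Searched on the transcribed strand in the last 100 bases of the 300-base window, the pyrimidine run was present in 53 of 63 members (84.1%) and in 31.7% of 10228 other genes with a window. This stretch begins before the annotated start, so a run counted here need not lie in the mRNA or at its 5′ end. In Rpl4 the printed run ended before the start. CCGGAAG, searched on both strands, was present in 25 of 63 members (39.7%) and 19.4% of the other genes. In Rps6, Rplp2, Fau, Rpl38 and Rpl22l1 the run lay within a few bases of the annotated start. The window of Rps28 held no run of this length.

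Library totals ranged from 6100684 to 25049912 counts. Levels are given in CPM, the counts of a gene after all libraries were scaled to the same total. Angptl4, a known target of fatty acids, was at 79.8 to 82.7 CPM in the 4 day 2 LA libraries, at 18.6 to 21.8 CPM in day 2 vehicle and at 261 to 306 CPM in day 6 LA. The added ANGPTL4 was a protein, so its mRNA does not check that treatment. All 12 markers of myoblasts and myotubes were in the table, and their summed level was lower in day 2 LA (18887 to 25729 CPM) and day 2 ANGPTL4 (20207 to 20799 CPM) than in day 2 vehicle (25789 to 29289 CPM). With LA at day 2, 7 of the 12 had a fold change above 0, and by edgeR's test 1 was higher and 2 were lower. With ANGPTL4 at day 2, 9 of the 12 were above 0, and 2 were higher and 1 was lower. The lower sums therefore do not describe most of these genes. What part this has in the members' values was not tested. Of 8 fibroblast markers 7 were in the table (Thy1 was not), at a summed 7868 to 9565 CPM in day 2 vehicle and 8471 to 9614 CPM in day 2 LA. None of 7 adipocyte markers was in the table, nor were Ptprc and Adgre1 of macrophages or Pecam1, Kdr and Emcn of endothelial cells. In bulk RNA, a change in the mix of cell states and a change in RNA per cell cannot be told apart.

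The members together held 1.58 to 3.06% of a library's counts. In day 2 vehicle the shares were 2.02, 1.58, 1.87 and 1.95% in replicates 1 to 4, a mean of 1.85% ± 0.194 (SD, n = 4). In day 2 LA they were 2.64, 2.72, 3.06 and 1.97%, a mean of 2.60% ± 0.459. Replicates 1 to 3 of day 2 LA lay above every other library, and replicate 4 lay inside the vehicle range. In day 2 ANGPTL4 the shares were 2.42, 2.14, 2.13 and 2.52%, a mean of 2.302% ± 0.197, all above the 4 vehicle libraries of that day. At day 6 the 3 groups overlapped, with means of 1.80% ± 0.154 for vehicle, 1.85% ± 0.0415 for LA and 1.83% ± 0.0394 for ANGPTL4.

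**Figure D1:**
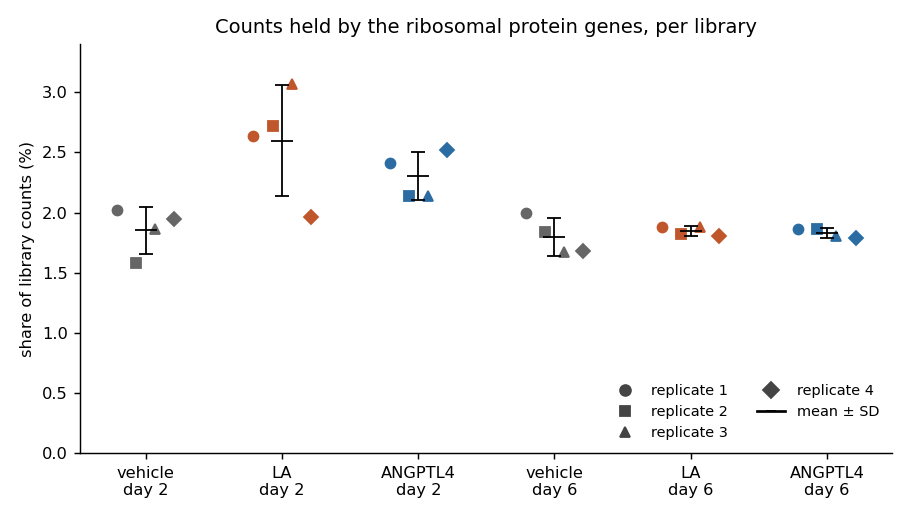
Share of each library's counts (percent, vertical axis) held by the 83 ribosomal protein genes in the 6 groups. Each point is a library with its replicate number as its shape, and bars give the mean and SD of 4 libraries. Replicates 1 to 3 of day 2 LA lie between 2.64 and 3.06%, replicate 4 is at 1.97%, and the day 6 libraries all lie between 1.67 and 2.00%.

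That 1 library of day 2 LA stands apart bears on every comparison with that group. Replicate 4 had the smallest total of its group, 9547787 counts against 17356591 to 25049912, and an Angptl4 level like that of the other 3. The members' mean log2 deviation from their average over all 24 libraries was 0.48, 0.53 and 0.67 in replicates 1 to 3 and -0.12 in replicate 4. The respiratory chain genes moved in the same way over these libraries, at 0.26, 0.33, 0.43 and -0.20, as did other genes with transcripts under 800 nucleotides, at 0.29, 0.32, 0.26 and -0.05. Fits with every library thinned to the smallest total, and with a trend with transcript length and GC content removed, are given below. Beyond these fits, what part depth, RNA quality or transcript length has in the members' values was not tested. In what follows, counts of called members, their medians and the relation with protein length are also given without replicate 4 where they rest on this group. Values of some genes are given without it too. Replicate 4 was picked out by the members' own low values. Calls gained without it are therefore descriptions and no further evidence of a rise.

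At day 2, LA was compared with vehicle to ask which genes respond to the fatty acid early in differentiation. Of 81 members, 61 rose and none fell by edgeR's quasi-likelihood test with Benjamini-Hochberg adjustment (adjusted p under 0.05), against 8.27% of all genes tested that rose. They were 25 of 32 small subunit and 36 of 49 large subunit genes. The members' median log2 fold change was 0.57, against 0.01 for all genes, and 80 of 81 were above 0. The largest changes were of Rps29, Rps28 and Rpl39, and the smallest were of Rps2, Rpl32l and Rpl4. Libraries of the 2 groups did not overlap for 14 members, all higher with LA, against 6.42% of all genes. The count was 75, with a median of 0.67, without LA replicate 4, and 35 without LA replicate 3. It was 3 when only these 8 libraries were fitted, and 40, with a median of 0.34, when a trend with transcript length and GC content was removed. The fit of all 24 libraries shares its estimate of the spread among the 6 groups. The members' median SD of log2 CPM was 0.34 in day 2 LA and 0.26 in day 2 vehicle, against 0.07 to 0.18 in the other groups. What part this has in the count was not tested.

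**Figure D2:**
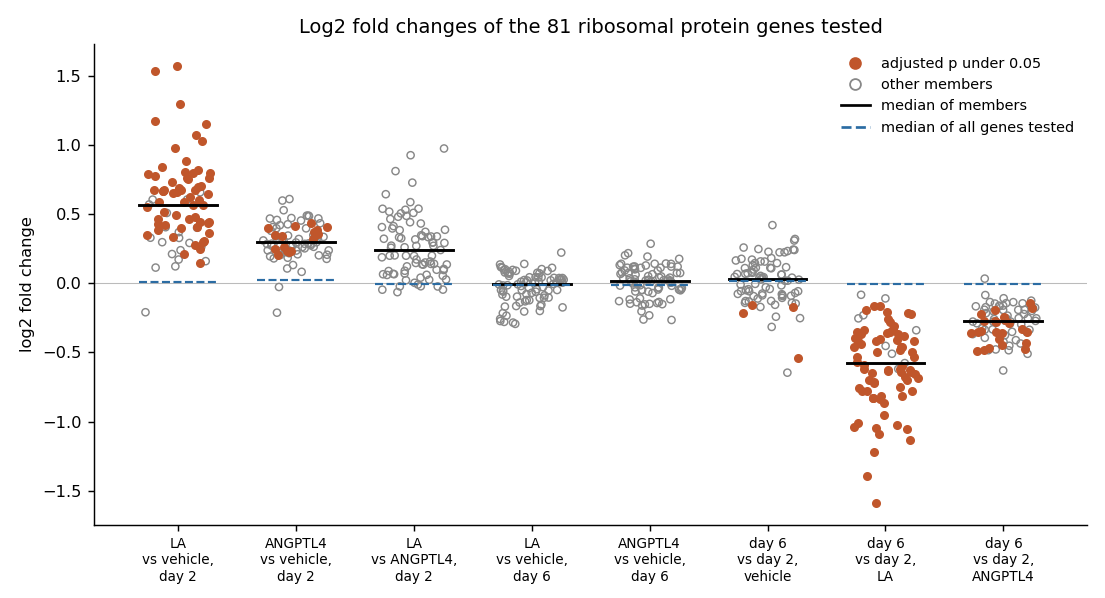
Log2 fold changes (vertical axis) of the 81 members tested in 8 comparisons. Filled points passed an adjusted p of 0.05, open points did not, the solid bar is the members' median and the dashed bar the median of all genes tested. The members lie above 0 for LA at day 2 (median 0.57), less far for ANGPTL4 at day 2 (0.30), around 0 at day 6, and below 0 for day 6 against day 2 in LA-treated cells (-0.58).

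Among the small subunit genes, Rps28 and Rps29 moved furthest. Rps28, a small protein near the mRNA exit channel, was at 62.2, 21.5, 54.5 and 63.1 CPM in day 2 vehicle and at 166, 165, 182 and 55.4 CPM in day 2 LA. Rps29, a zinc-binding protein that is mutated in some cases of Diamond-Blackfan anaemia, was at 42.1, 26.5, 39.9 and 47.8 CPM in vehicle and at 133, 146, 143 and 30.6 CPM in LA. For both genes the first 3 LA libraries lay above all vehicle libraries and LA replicate 4 lay among them. The log2 fold change was 1.53 ± 0.318 (SE) for Rps28 (adjusted p = 0.00498) and 1.57 ± 0.337 for Rps29 (adjusted p = 0.0058). Without LA replicate 4 the log2 fold changes were 1.78 for Rps28 (adjusted p = 0.00011) and 1.85 for Rps29 (adjusted p = 1.16e-05). With the 8 libraries of these 2 groups fitted alone, the adjusted p was 0.127 for each.

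Other small subunit genes rose by less but more evenly. Rps19, the gene most often mutated in Diamond-Blackfan anaemia, was at 134, 97.3, 136 and 105 CPM in vehicle and at 184, 195, 218 and 148 CPM in LA. Rps27a, which encodes a fusion of ubiquitin with a ribosomal protein, was at 216, 144, 210 and 183 CPM in vehicle and at 346, 352, 397 and 226 CPM in LA. In both, all 4 LA libraries were above all 4 vehicle libraries, with replicate 4 the lowest of the LA group. The log2 fold changes were 0.67 ± 0.111 for Rps19 (adjusted p = 0.0012) and 0.82 ± 0.142 for Rps27a (adjusted p = 0.0021).

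Rpsa, a protein of the small subunit that is also known as a laminin receptor precursor, was at 754, 465, 730 and 684 CPM in vehicle and at 901, 918, 1048 and 770 CPM in LA, without overlap. It rose by a log2 fold change of 0.47 ± 0.114 (adjusted p = 0.0106). Rps25, which some viral internal ribosome entry sites need, rose by 0.58 ± 0.113 (adjusted p = 0.00316), Rps14 by 0.38 ± 0.0853 (adjusted p = 0.00531) and Rps3, a protein of the mRNA entry channel, by 0.30 ± 0.0775 (adjusted p = 0.0105). Rps6, the substrate of S6 kinase, was at 188, 135, 185 and 228 CPM in vehicle and at 226, 241, 255 and 175 CPM in LA, with a log2 fold change of 0.29 ± 0.121 that did not pass (adjusted p = 0.113). Fau, which encodes the ribosomal protein eS30 fused to a ubiquitin-like protein, did not pass either (0.37 ± 0.163, adjusted p = 0.137). Without LA replicate 4, the library picked out for its low values, both passed edgeR's test. Rps6 was then at 0.38 (adjusted p = 0.018) and Fau at 0.49 (adjusted p = 0.026).

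Rps2, a protein of the mRNA entry channel, was the only member with a negative fold change. It was at 192, 383, 167 and 257 CPM in vehicle and at 214, 228, 247 and 175 CPM in LA (log2 fold change -0.21 ± 0.195, adjusted p = 0.51). Vehicle replicate 2, where most members were at their lowest of the group, held the highest Rps2 value.

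In the large subunit, the stalk proteins differed among themselves. The stalk recruits translation factors to the ribosome and is built of Rplp0, its base, with Rplp1 and Rplp2. Rplp1 was at 126, 98.8, 120 and 114 CPM in vehicle and at 293, 284, 339 and 109 CPM in LA, and rose by a log2 fold change of 1.17 ± 0.25 (adjusted p = 0.00561). Rplp2 was at 188, 145, 158 and 155 CPM in vehicle and at 269, 256, 293 and 156 CPM in LA, and rose by 0.60 ± 0.166 (adjusted p = 0.0217). Rplp0 was at 1023, 759, 937 and 887 CPM in vehicle and at 1045, 1069, 1205 and 1037 CPM in LA, and rose by 0.27 ± 0.0658 (adjusted p = 0.00638). The groups overlapped for Rplp1 and Rplp2 through LA replicate 4, and did not overlap for Rplp0.

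Rpl39, a short protein that lines the exit tunnel, was at 66.8, 38.9, 56.2 and 48.7 CPM in vehicle and at 138, 151, 165 and 54.0 CPM in LA (log2 fold change 1.30 ± 0.255, adjusted p = 0.00395). Rpl38, which is needed for patterning of the axial skeleton in mice, was at 63.0, 45.4, 55.8 and 55.1 CPM in vehicle and at 103, 106, 115 and 47.0 CPM in LA (0.79 ± 0.202, adjusted p = 0.0145). In both, the first 3 LA libraries lay above the vehicle range and replicate 4 inside it. Rpl41, the smallest member, did not pass (0.57 ± 0.209, adjusted p = 0.0726), but passed without LA replicate 4 (0.76, adjusted p = 0.00291).

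Rpl5 and Rpl11, which join the ribosome with the 5S RNA and can bind Mdm2, both rose. Rpl5 was at 184, 63.1, 173 and 195 CPM in vehicle and at 274, 283, 298 and 179 CPM in LA (log2 fold change 0.76 ± 0.23, adjusted p = 0.0324). Rpl11 rose by 0.65 ± 0.178 (adjusted p = 0.0209). The call was lost in 6 of 19 other settings for Rpl5, among them those without LA replicate 1, 2 or 3, and in 5 of 19 for Rpl11, among them those without LA replicate 3 or vehicle replicate 2. Mdm2 itself was not called (-0.07, adjusted p = 0.273). Rpl10a, a protein of the L1 stalk, rose by 0.77 ± 0.156 (adjusted p = 0.00434) without overlap of the groups, Rpl10, which is inserted late in 60S maturation, by 0.43 ± 0.0948 (adjusted p = 0.00532), and Rpl13a by 0.24 ± 0.0753 (adjusted p = 0.0285). Rpl4, which has the longest protein among those sized, was at 991, 1010, 955 and 1110 CPM in vehicle and at 1096, 1137, 1211 and 979 CPM in LA. Its log2 fold change of 0.12 ± 0.0577 did not pass (adjusted p = 0.153), but passed without LA replicate 4 (0.17, adjusted p = 0.0372).

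**Figure D3:**
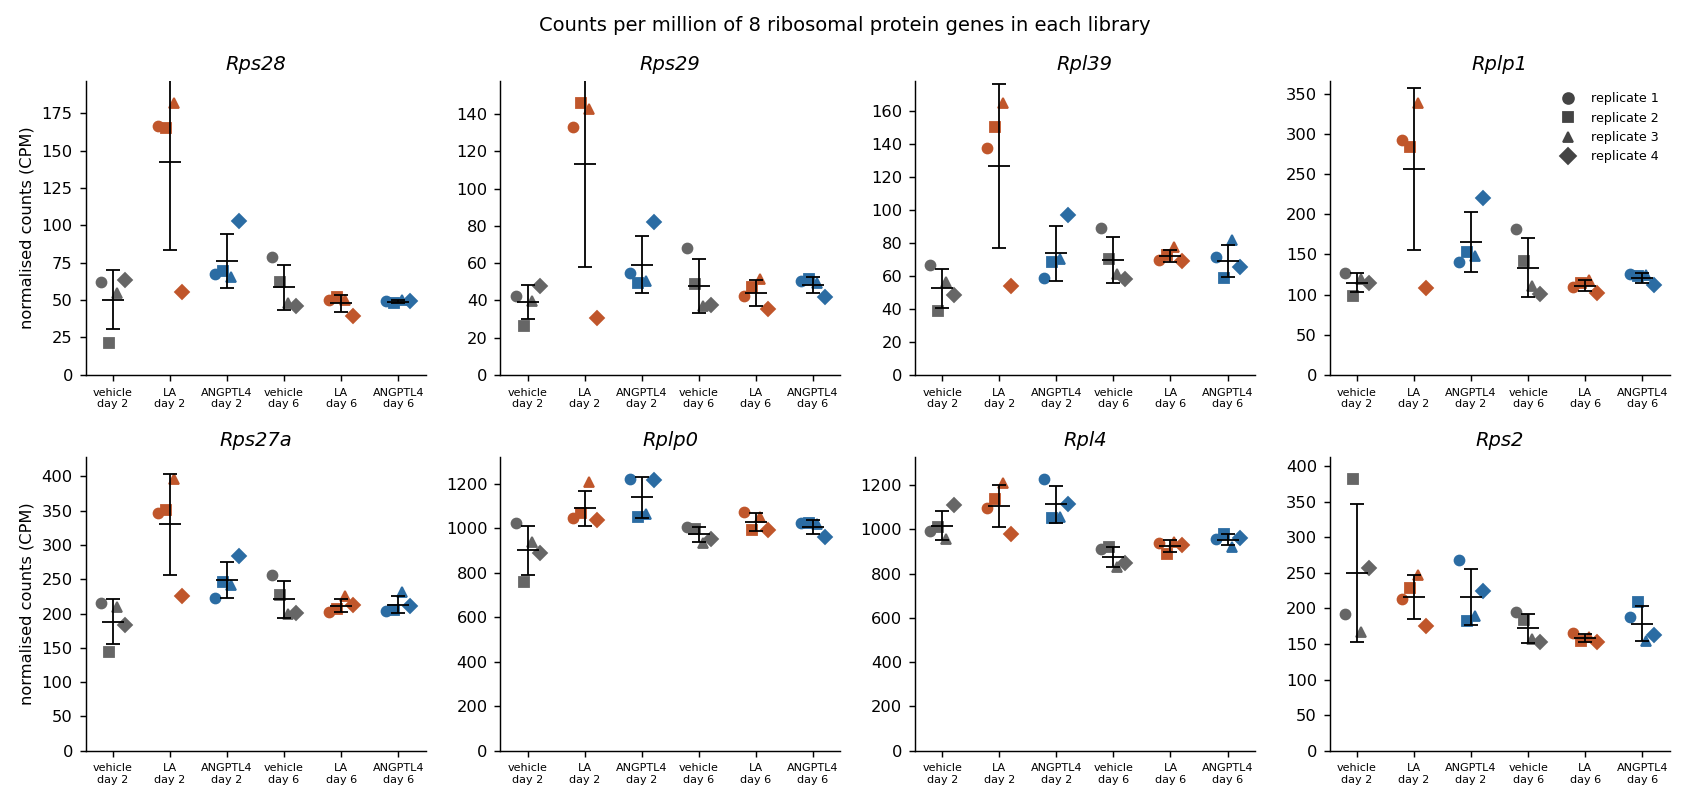
Counts in CPM (vertical axes, each from 0) of 8 members in the 6 groups. Each point is a library with its replicate number as its shape, and bars give the mean and SD of 4 libraries. For Rps28, Rps29, Rpl39 and Rplp1, replicates 1 to 3 of day 2 LA stand well above all other groups while replicate 4 stands with the vehicle libraries; for Rplp0, Rpl4 and Rps2 the groups lie close together.

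The size of the change went with the size of the protein. Protein lengths from a GENCODE annotation were available for 80 of the 81 members tested, from 25 amino acids (Rpl41) to 419 (Rpl4). Over these 80 genes the log2 fold change with LA at day 2 had a Pearson correlation of -0.63 with log2 length and a Spearman correlation of -0.63 with length. These genes share their libraries, so the correlations are descriptions. The 20 members with the shortest proteins (25 to 123 amino acids) had a median log2 fold change of 0.79, and 16 of them rose. The 20 with the longest (208 to 419 amino acids) had a median of 0.30, and 13 rose. Without LA replicate 4 the correlation with log2 length was -0.66, and the medians were 0.98 for the shortest and 0.38 for the longest. These classes were chosen after the values were seen.

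Short genes outside the set moved the same way by less. Of 479 other genes with transcripts under 800 nucleotides, 35.3% rose with LA at day 2, with a median log2 fold change of 0.31. Of 3875 genes with transcripts of 4000 nucleotides or more, 1.65% rose and 17.4% fell, with a median of -0.09. The 41 members with transcripts under 800 nucleotides had a median of 0.67, and 34 of them rose. Members with longer transcripts rose too. From 800 to 1500 nucleotides, 18 of 30 members rose (median 0.40), against 20.1% of other genes (median 0.15). From 1500 to 4000 nucleotides, 8 of 9 members rose (median 0.47), against 6.60% of other genes (median 0.02).

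**Figure D4:**
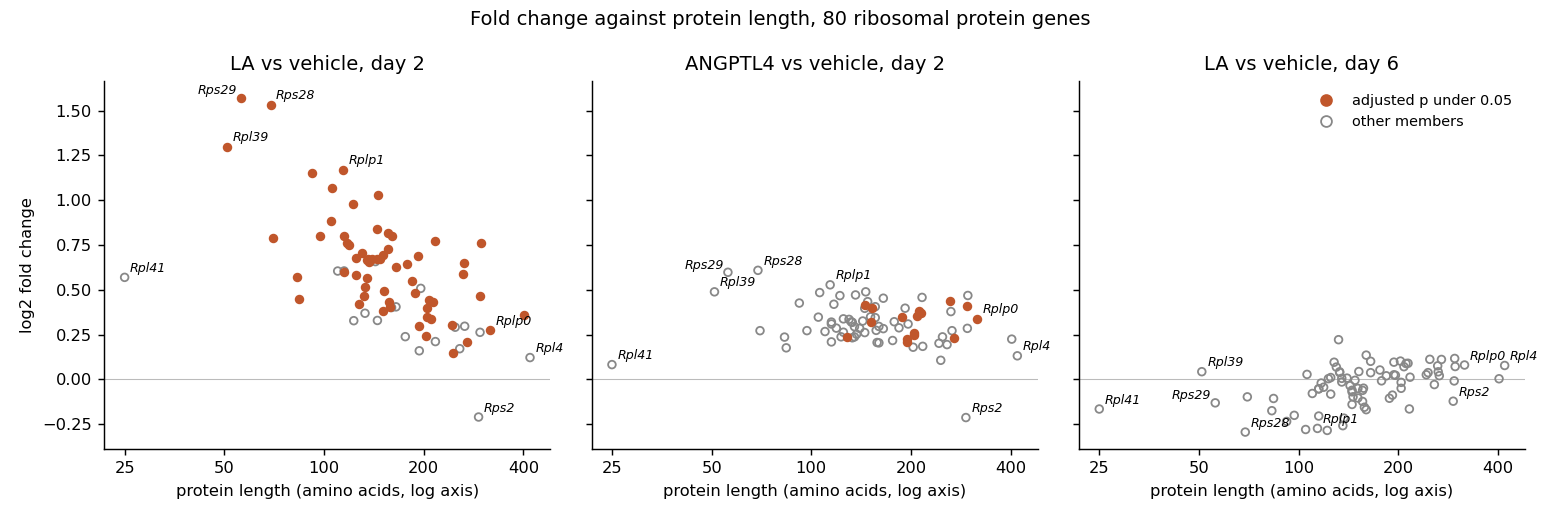
Log2 fold change (vertical axis) against protein length in amino acids (horizontal log axis) for 80 members in 3 comparisons. Filled points passed an adjusted p of 0.05. The fold change falls with length for LA at day 2 (Pearson -0.63 with log2 length), little for ANGPTL4 at day 2 (-0.23), and rises with it for LA at day 6 (0.47), where no member passed. The correlation was much the same for ANGPTL4 at day 6 (0.45, not drawn), which shares the vehicle libraries, and 0.06 for LA against ANGPTL4 at day 6.

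By library, the short members stood above the long ones in 3 of the 4 day 2 LA libraries. The mean log2 deviation of the 20 shortest was 0.79, 0.83, 0.98 and -0.30 in LA replicates 1 to 4, and that of the 20 longest was 0.24, 0.30, 0.42 and -0.03. Short minus long was therefore 0.55, 0.53 and 0.57 in 3 libraries and -0.27 in the other. In day 2 ANGPTL4 it was -0.15, -0.07, -0.08 and 0.20.

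**Figure D5:**
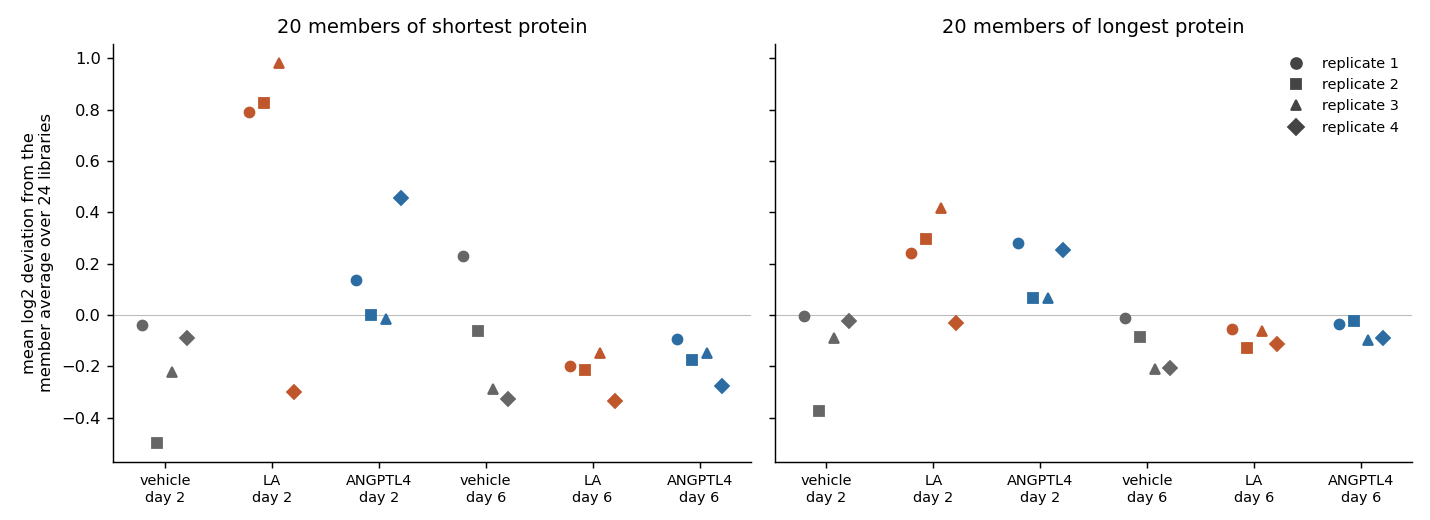
Mean log2 deviation from each member's average over the 24 libraries (vertical axis), for the 20 members with the shortest proteins (left) and the 20 with the longest (right). Each point is a library with its replicate number as its shape. In day 2 LA the short members stand at 0.79 to 0.98 in replicates 1 to 3 and at -0.30 in replicate 4, while the long members span 0.42 to -0.03.

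Members with and without the pyrimidine run both rose. Of 51 members tested with the run, 34 rose with LA at day 2, with a median log2 fold change of 0.57. Of 10 tested members with a window but no run, all 10 rose, with a median of 0.53. Without LA replicate 4 these were 47 of 51 with the run (median 0.71) and 9 of 10 without it (0.59). Rps28, whose window is printed above without a run, had the largest change among these 10.

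At day 2, ANGPTL4 was compared with vehicle to ask which genes respond to the secreted protein. Of 81 members, 16 rose and none fell by edgeR's test, against 3.86% of all genes tested that rose. The members' median log2 fold change was 0.30, and 79 of 81 were above 0. They were 9 small subunit genes, among them Rpsa, Rps4x, Rps7, Rps9, Rps14, Rps18 and Rps19, and the large subunit genes Rplp0, Rpl7, Rpl10, Rpl13, Rpl15, Rpl18 and Rpl22. None of the 20 shortest members passed, and 7 of the 20 longest did, although the median log2 fold changes were close, at 0.31 and 0.28. The libraries did not overlap for 30 members, all higher with ANGPTL4, against 6.7% of all genes. The count was 5 without ANGPTL4 replicate 4, 8 without vehicle replicate 2 and 9 without vehicle replicate 4, 10 with only the compared groups fitted and 9 with the length and GC trend removed.

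Rplp0 was at 1223, 1052, 1066 and 1215 CPM in day 2 ANGPTL4, above every vehicle library, and rose by a log2 fold change of 0.34 ± 0.0658 (adjusted p = 0.00375). Rpsa was at 894, 798, 824 and 976 CPM and rose by 0.41 ± 0.114 (adjusted p = 0.03). Rps19 was at 142, 153, 149 and 183 CPM and rose by 0.41 ± 0.111 (adjusted p = 0.0251). None of these 3 overlapped with vehicle. Rpl10 rose by 0.37 ± 0.0948 (adjusted p = 0.0183), Rps14 by 0.32 ± 0.0854 (adjusted p = 0.0222) and Rpl7 by 0.23 ± 0.0558 (adjusted p = 0.0102).

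The members that changed most with LA were not called with ANGPTL4. Rps28 was at 67.1, 69.2, 65.6 and 103 CPM in day 2 ANGPTL4, above the vehicle libraries in all 4, with a log2 fold change of 0.61 ± 0.323 (adjusted p = 0.243). Rps29 was at 54.7, 49.2, 50.4 and 81.8 CPM, again above vehicle in all 4, with 0.60 ± 0.346 (adjusted p = 0.287). Replicate 4 was the highest ANGPTL4 library for both. Rplp1 had 0.53 ± 0.25 (adjusted p = 0.19). At the lower end, Rpl41 had 0.08 ± 0.21 (adjusted p = 0.843) and Rps2 -0.21 ± 0.196 (adjusted p = 0.526).

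Set directly against each other at day 2, LA and ANGPTL4 differed in no member by edgeR's test, against 0.0924% of all genes called. At an unadjusted p under 0.05 there were 29 members, and limma-voom and DESeq2 also called 0. The median log2 difference, LA over ANGPTL4, was 0.24. The highest differences were of Rps29 (0.97 ± 0.318, adjusted p = 0.212), Rps28 (0.93 ± 0.302, adjusted p = 0.212) and Rpl39 (0.81 ± 0.244, adjusted p = 0.183), and the lowest was of Rplp0 (-0.06 ± 0.0656, adjusted p = 0.73). The median was 0.10 with the length and GC trend removed and 0.13 without LA replicate 3. Without LA replicate 4, 30 members were higher with LA and the median was 0.37. The correlation of the difference with log2 protein length was -0.73 (Pearson) over the 80 sized members, and -0.74 without LA replicate 4.

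At day 6 no member passed the test with either treatment. For LA against vehicle edgeR called 0 of 81, against 17.2% of all genes, with 0 at an unadjusted p under 0.05 and 0 by limma-voom and DESeq2. The median log2 fold change was -0.01. The extremes were Rps28 (-0.29 ± 0.338, adjusted p = 0.629) and Rps12 (0.22 ± 0.151, adjusted p = 0.373). With only the compared groups fitted 5 members were called, and with the length and GC trend removed 1. For ANGPTL4 edgeR called 0, against 0.0231% of all genes, with 1 member at an unadjusted p under 0.05 and 0 by the other tools. For LA against ANGPTL4 it called 0, against 13.9% of all genes, with 0 at an unadjusted p under 0.05 and 0 by the other tools.

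Replicates of the treated groups lay close together at day 6. Rps28 was at 78.5, 62.1, 48.2 and 45.8 CPM in day 6 vehicle, at 50.1, 52.2, 50.02 and 39.4 CPM in LA and at 49.1, 48.0, 49.9 and 49.1 CPM in ANGPTL4. Rplp0 was at 1006, 997, 934 and 951 CPM in vehicle, at 1073, 993, 1052 and 993 CPM in LA and at 1024, 1022, 1017 and 959 CPM in ANGPTL4. The groups overlapped for both genes. Over the 81 members the median SD of log2 CPM among replicates was 0.07 in day 6 LA, 0.10 in day 6 ANGPTL4 and 0.15 in day 6 vehicle. At day 2 it was 0.34 in LA, 0.26 in vehicle and 0.18 in ANGPTL4. For all genes it was 0.10 to 0.13 in every group.

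The difference between the LA effect at day 6 and that at day 2 was tested as an interaction. It was negative and called for 42 of 81 members, against 11% of all genes tested, with a median of -0.59. It was -1.83 ± 0.464 for Rps28 (adjusted p = 0.00996), -1.70 ± 0.491 for Rps29 (adjusted p = 0.0206), -1.44 ± 0.357 for Rplp1 (adjusted p = 0.00853) and -0.74 ± 0.159 for Rps19 (adjusted p = 0.00295). It was not called for Rplp0 (-0.19 ± 0.0931, adjusted p = 0.144) or Rpl4 (-0.04 ± 0.0818, adjusted p = 0.747). Without day 2 LA replicate 4 the count was 57 and the median -0.67. It was 22 without day 2 LA replicate 3, 27 without day 2 LA replicate 2, 20 without day 6 vehicle replicate 1, and 27 without day 6 LA replicate 2 or 4. It was 21 with only the compared groups fitted and 26, with a median of -0.28, with the length and GC trend removed. For ANGPTL4 the same interaction was called for no member by edgeR, against 0.277% of all genes, with 23 members at an unadjusted p under 0.05, 2 by DESeq2 and 0 by limma-voom. Its median was -0.28.

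The change from day 2 to day 6 was examined within each treatment. In vehicle, 4 members fell from day 2 to day 6 and none rose, against 20.5% of all genes that fell, with a median log2 fold change of 0.03. Among them were Rps2 (-0.54 ± 0.199, adjusted p = 0.033), Rpl4 (-0.21 ± 0.0579, adjusted p = 0.00311) and Rps7 (-0.15 ± 0.0575, adjusted p = 0.0283). Rpl4 was at 912, 918, 828 and 848 CPM at day 6, below every day 2 vehicle library. Rps2 was at 195, 184, 157 and 153 CPM at day 6. These libraries overlapped with day 2 vehicle, where replicate 2 was the highest at 383 CPM. The count was 7 without day 2 vehicle replicate 2, 2 without day 2 vehicle replicate 4 and 1 without day 6 vehicle replicate 3, and with the length and GC trend removed 13 were called, 11 lower and 2 higher.

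In LA-treated cells 72 of 81 members fell from day 2 to day 6 and none rose, against 20.7% of all genes that fell, with a median of -0.58. The 9 not called were Rpl5, Rpl6, Rpl10, Rpl19, Rpl32l, Rplp0, Rps2, Rps6 and Rps10. Rps28 fell by 1.59 ± 0.321 on the log2 scale (adjusted p = 0.000556), Rps29 by 1.39 ± 0.336 (adjusted p = 0.00248), Rplp1 by 1.22 ± 0.251 (adjusted p = 0.000652) and Rps19 by 0.68 ± 0.111 (adjusted p = 4.95e-05). Rps19 went from 184, 195, 218 and 148 CPM at day 2 to 114, 116, 119 and 119 CPM at day 6, without overlap. Rplp0 changed least (-0.08 ± 0.0657, adjusted p = 0.31). The count was 77, with a median of -0.73, without day 2 LA replicate 4, and 52, with a median of -0.36, with the length and GC trend removed. These falls and the day 2 rise share the 4 day 2 LA libraries. Over the same days all 7 fibroblast markers rose in LA-treated cells, as did 6 of 7 in vehicle and 5 of 7 with ANGPTL4. With LA at day 6, 4 of the 7 were higher than in vehicle (summed levels of 12482 to 14831 CPM against 10161 to 11733 CPM), and 10 of 12 myoblast and myotube markers were lower. Their part in the members' fall was not tested.

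In ANGPTL4-treated cells 24 members fell and none rose, against 19.8% of all genes that fell, with a median of -0.27. Rps19 fell by 0.47 ± 0.114 (adjusted p = 0.00224) and Rplp0 by 0.18 ± 0.0659 (adjusted p = 0.0278). Rps28 did not pass (-0.63 ± 0.339, adjusted p = 0.147). The libraries of both days did not overlap for 41 members, all lower at day 6, against 18.3% of all genes. The count was 14 without day 2 ANGPTL4 replicate 4, 51 with only the compared groups fitted and 37 with library totals as the only scaling.

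Paralogues of ribosomal proteins were compared with their parents within libraries. Rpl22l1, which can take the place of Rpl22 in the ribosome, was at 34.2, 27.3, 39.4 and 22.5 CPM in day 2 vehicle and at 59.5, 62.0, 76.1 and 39.4 CPM in day 2 LA, where replicate 4 reached down to the highest vehicle library. It rose by a log2 fold change of 0.98 ± 0.227 (adjusted p = 0.00877), and Rpl22 rose by 0.42 ± 0.0693 (adjusted p = 0.000572). The log2 ratio of Rpl22l1 to Rpl22 went from -2.41 ± 0.333 to -1.88 ± 0.162 (SD, n = 4), a difference of 0.53 that did not pass an exact two-sided permutation test (p = 0.0571, adjusted p = 0.4 over 21 tests). The ratio was lower by 0.59 at day 6 than at day 2 in LA-treated cells and lower by 0.37 with LA than with vehicle at day 6. In both of these the libraries did not overlap, and p = 0.0286 in the exact permutation test, the smallest that 4 against 4 allows, with an adjusted p of 0.3.

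Rpl7l1 rose with LA at day 2 by 0.15 ± 0.0498 (adjusted p = 0.0428) and Rpl7 by 0.21 ± 0.0558 (adjusted p = 0.012). Without LA replicate 4, Rpl7l1 did not pass edgeR's test (0.13, adjusted p = 0.0863). The ratio of Rpl7l1 to Rpl7 had an exact permutation p of 0.143 or more in all 7 comparisons. Rps27l, a paralogue of Rps27 that p53 can induce, rose by 0.45 ± 0.124 (adjusted p = 0.0205), while Rps27 had too few counts to test. Rpl32l was at 0 to 1.77 CPM and was called in no comparison. Ribosomal protein genes have many near-identical processed pseudogenes, and how reads that match several places were counted is not given in the sources used here, so the members' levels are uncertain for that reason.

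Other genes of the translation machinery were read beside the members, in lists of related function. With LA at day 2, 11 of 20 genes listed as having TOP mRNAs rose and none fell, with a median log2 fold change of 0.23. Most of the list is translation machinery, and it also holds a filament gene and host transcripts of small nucleolar RNAs. The count was again 11 without LA replicate 4. The counts of these lists stand against the 8.27% of all genes that rose with LA and the 3.86% that rose with ANGPTL4. The scaffold Rack1 rose by 0.26 (adjusted p = 0.00273), Tpt1 by 0.43 (adjusted p = 0.0276) and the elongation factor Eef1a1 by 0.19 (adjusted p = 0.0234). The elongation factor Eef2 did not pass (0.08, adjusted p = 0.298). With ANGPTL4 at day 2, 4 of the 20 rose, among them Rack1 (0.25, adjusted p = 0.00644), Eef1a1 (0.24, adjusted p = 0.0102) and Eef2 (0.17, adjusted p = 0.0245).

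Of 66 ribosome biogenesis genes, 8 (12.1%) rose and 1 fell with LA at day 2, and 4 (6.06%) rose and 1 fell with ANGPTL4. Gar1, of the particles that convert uridine to pseudouridine, rose by 0.62 with LA (adjusted p = 0.0114), and the nucleolar chaperone Npm1 by 0.29 (adjusted p = 0.0259). Of 32 genes of RNA polymerases I and III, 9 (28.1%) rose and 3 fell with LA, from Polr2k, a small shared polymerase subunit, at 1.30 (adjusted p = 0.00575) to Bdp1, of the TFIIIB complex, at -0.34 (adjusted p = 0.00487). Of 28 initiation factors, 9 (32.1%) rose and 2 fell with LA, and 9 rose and none fell with ANGPTL4. In each of these 3 lists 9 genes rose with LA without its replicate 4. In that fit 4 biogenesis genes, 4 polymerase genes and 1 initiation factor fell.

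Of 30 regulators of ribosome supply, 2 (6.67%) rose and 1 fell with LA at day 2. Without LA replicate 4, 2 rose and 4 fell. The values that follow are from the fit of all libraries. Myc, a transcription factor that drives ribosome production, was not called (-0.03, adjusted p = 0.82), nor were Mtor (-0.13, adjusted p = 0.0624) and Larp1 (-0.12, adjusted p = 0.0675). With ANGPTL4 at day 2 Mtor fell by 0.16 (adjusted p = 0.0339). At day 6 Mtor fell by 0.23 with LA (adjusted p = 0.000675).

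Lists of mitochondrial genes also held genes that rose and none that fell at day 2. Of 78 mitochondrial ribosomal protein genes 31 rose and none fell with LA at day 2 (median 0.18), and 9 rose with ANGPTL4 (median 0.16). Of 82 respiratory chain genes 54 rose and none fell with LA (median 0.45), and 11 rose with ANGPTL4 (median 0.21). Without LA replicate 4, 40 mitochondrial ribosomal and 63 respiratory chain genes rose with LA. From day 2 to day 6 in vehicle, 28 respiratory chain genes (34.1%) and 12 mitochondrial ribosomal genes (15.4%) rose, against 25.2% of all genes. In LA-treated cells 55 of 82 respiratory chain genes and 36 of 78 mitochondrial ribosomal genes fell over the same time, against the 20.7% of all genes given above. Of the 66 biogenesis genes, 31 fell in vehicle, 37 with LA and 38 with ANGPTL4.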

How the data were processed

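Gene counts of 24 libraries, 4 in each of 6 groups, were analysed. The deposited values are raw counts per gene symbol, which the authors made from QuantSeq 3′ libraries. Trimmomatic, STAR 2.7.1a, HTSeq 0.9.1, DESeq and DESeq2 are named with the build mm39, per the submitters' processing notes, with no role or settings. Multi-mapping and strand settings are not given in the sources used here. The table has 14693 genes, each with at least 51 counts in all.

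Genes were filtered with edgeR's filterByExpr, which removed 1699 and left 12994, and scaled by TMM (edgeR 4.0.16, limma 3.58.1, R 4.3.3). All 24 libraries were fitted as 6 group means by the robust quasi-likelihood method (18 residual degrees of freedom, common biological coefficient of variation 6.51%), and the Benjamini-Hochberg adjustment ran over all 12994 genes. Every adjusted p of a gene comes from this test, and SE is approximate, from the fold change and its F statistic. The fit was tested on simulated counts with the same spread for all genes and groups. That simulation cannot show how the members' unequal spread between groups affects their calls. Log2 ratios of paralogues used the raw counts of a library with a prior of 0.5 counts, and exact two-sided permutation tests (SciPy 1.17.1). Protein and transcript lengths came from GENCODE vM21 (GRCm38) by symbol, with no coordinates joined to the counts.

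The members and lists were chosen with earlier results of these data known. The text names members of set roles, members ending in l or l1 with their parents, the 3 highest and 3 lowest members of a comparison, the highest or lowest called gene of a companion list, and Rack1, Eef1a1, Eef2, Tpt1, Npm1, Larp1, Mtor, Myc and Mdm2. Rps7 and members listed by name only were named after their values were seen. Alternatives were DESeq2 1.42.0, limma-voom, other scalings and filters, fewer libraries, a replicate block, thinning every library to the smallest total and offsets for transcript length and GC content (mgcv 1.9.3). Totals of 6100684 to 25049912 counts per library set the counting precision. Some named genes' results are not reported here.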

Additional observations from a re-analysis of the deposited data

Results flagged for a closer look

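In groups of 4 libraries, 1 library stood far from the others in 17 of 252 sets of values examined; chance gives about 1 in 20 sets. The number after each gene is the gap of the outlying library to its nearest neighbour over the group's range. In day 2 LA, replicate 4 was the low library for the difference between short and long members (0.955), Rps28 (0.865), Rps29 (0.890) and Rpl32 (0.841, at 225 CPM against 420 to 457 CPM). In day 2 ANGPTL4, replicate 4 was the high library for Rplp1 (0.854), Rps28 (0.904), Rps29 (0.832) and Rps3 (0.874, at 450 CPM). In day 2 vehicle, replicate 2 was low for Rpl5 (0.832) and Rpl10a (0.868, at 70.5 CPM) and high for Rpl13a (0.884, at 243 CPM) and Rpl32l (0.841, at 1.77 CPM), and replicate 4 was low for Rps14 (0.830, at 235 CPM). At day 6, LA replicate 4 was low for Rps28 (0.832), and in ANGPTL4 replicate 1 was high for Rpl10a (0.866, at 109 CPM) while replicate 4 was low for Rplp0 (0.895) and high for Rpl32l (0.924, at 0.90 CPM).

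The LA effect differed between the days, by the interaction test, for 42 members, all with a lower effect at day 6. On the log2 scale the difference was -1.83 for Rps28, -1.70 for Rps29, -1.44 for Rplp1, -1.26 for Rpl22l1 and for Rpl39, -0.94 for Rpl10a, -0.89 for Rpl38, -0.88 for Rps27a, -0.74 for Rps19, -0.67 for Rps25, -0.55 for Rps27l, -0.49 for Rps14, -0.48 for Rpsa and -0.33 for Rpl22. The call was lost in 15 of 27 other settings for Rpsa (adjusted p = 0.0436), in 18 for Rpl38 and in 13 for Rps27l.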

How the results depend on the processing

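With only the compared groups fitted, counts of called members were 3 for LA against vehicle at day 2, 5 at day 6, 10 for ANGPTL4 at day 2, 51 for day 6 against day 2 in ANGPTL4 and 21 for the change of the LA effect between days. With the length and GC trend removed they were, in the same order of comparisons, 40, 1 and 9 for the treatments, 13 for the days in vehicle and 26 for the change of the LA effect. With both day 2 LA replicate 3 and day 6 ANGPTL4 replicate 1 left out they were 31 for LA at day 2 and 21 for the change of its effect. With library totals alone, day 6 against day 2 in ANGPTL4 had 37, and DESeq2 called 2 members for the change of the ANGPTL4 effect. Leaving out 1 library at a time gave 35 to 75 for LA at day 2, 5 to 20 for ANGPTL4 at day 2, 0 to 30 for LA against ANGPTL4 at day 2, 1 to 7 for the days in vehicle, 56 to 77 in LA, 14 to 28 in ANGPTL4, 20 to 57 for the change of the LA effect and 0 to 1 for that of ANGPTL4. Thinning to the smallest total left 56 for LA at day 2. Of the called values of named genes, 1 changed sign: Rps27l for day 6 against day 2 in LA was 0.093 with the length and GC trend removed, against -0.31. The cause was not tested. Values of named genes that were not called changed sign in some settings too.

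With the replicate number as a block, 60 members were called for LA and 16 for ANGPTL4 at day 2, 71, 25 and 5 for the days in LA, ANGPTL4 and vehicle, 40 for the change of the LA effect and 0 elsewhere. The numbers did not pair the libraries: correlations of deviations between same-numbered libraries ran from -0.31 to 0.30 with a median of 0.01, and 6 of 24 libraries correlated best with their own number. Members at the level of Rpl32l, Rpl3l and Rps27 were too low to show a difference.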
